A study of Mus musculus with 6 samples.

Results

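The genes of cholesterol synthesis and its control by SREBP2 were followed step by step in bone marrow-derived macrophages given thiothixene or DMSO. The module has 28 genes, chosen by name: 20 enzymes in pathway order, 6 genes of SREBP processing, and a sterol carrier with the enzyme that esterifies cholesterol. All 28 were found among the 56691 gene rows of the count tables by Ensembl identifier, and all 28 were among the 14856 genes that passed the filter on low counts. Macrophages were grown from the marrow of 3 mice, called a, b and c, seeded on day 4 of differentiation and treated on day 6. The drug group received 2 µM thiothixene, an antipsychotic that blocks dopamine receptors, and the control group received the solvent DMSO, both for 24 h. Each mouse gave a library to each group, giving 3 thiothixene and 3 DMSO libraries of total RNA, named below by group and mouse (thiothixene a, DMSO c). The comparison asked which transcripts differed after the drug.

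Cholesterol is built in the endoplasmic reticulum and cytosol from acetyl-CoA, by way of mevalonate, isoprenoid diphosphates, squalene and lanosterol. When sterol in the membrane of the endoplasmic reticulum is plentiful, INSIG proteins hold SCAP and its cargo SREBP2 there. When sterol is scarce, SCAP escorts SREBP2 to the Golgi, where a pair of proteases release a transcription factor that turns on nearly all genes of the pathway, INSIG1 among them. Macrophages also take in cholesterol with lipoproteins and dead cells, and store the excess as esters.

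The promoters of 3 members are shown because the values below turn on Lss and Insig1, the members of smallest p with a window in the table used, and because Hmgcs1 held the sterol regulatory element. Hmgcs1 was picked after that match was seen. Windows run from 250 bases before to 50 bases after the RefSeq start on GRCm38.p6, 5′ to 3′. The capitals mark matches, on either strand, to the sterol regulatory element TCACNCCAC, the E-box CACGTG, the CCAAT box CCAAT and the GC box GGGCGG. No match shares bases with another in these 3 windows.
Lss, chr10:76531355-76531654, plus strand: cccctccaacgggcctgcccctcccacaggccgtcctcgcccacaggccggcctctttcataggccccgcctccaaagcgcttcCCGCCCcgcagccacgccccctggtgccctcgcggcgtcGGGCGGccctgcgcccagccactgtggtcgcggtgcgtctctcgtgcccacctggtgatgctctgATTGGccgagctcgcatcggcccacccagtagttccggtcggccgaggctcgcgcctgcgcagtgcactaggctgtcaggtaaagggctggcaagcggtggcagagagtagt
Insig1, chr5:28071162-28071461, plus strand: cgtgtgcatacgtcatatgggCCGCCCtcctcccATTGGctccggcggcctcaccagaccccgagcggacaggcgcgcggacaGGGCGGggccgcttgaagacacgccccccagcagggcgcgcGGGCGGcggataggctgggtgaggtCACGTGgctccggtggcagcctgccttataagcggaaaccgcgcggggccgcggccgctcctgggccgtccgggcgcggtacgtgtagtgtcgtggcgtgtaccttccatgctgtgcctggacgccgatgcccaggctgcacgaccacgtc
Hmgcs1, chr13:119690101-119690400, plus strand: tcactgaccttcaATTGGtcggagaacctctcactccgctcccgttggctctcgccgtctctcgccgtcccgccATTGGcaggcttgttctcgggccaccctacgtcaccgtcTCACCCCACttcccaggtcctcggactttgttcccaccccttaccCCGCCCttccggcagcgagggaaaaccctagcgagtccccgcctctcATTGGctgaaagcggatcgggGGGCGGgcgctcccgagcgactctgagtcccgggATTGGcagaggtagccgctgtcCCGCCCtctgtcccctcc
The Lss window held 3 matches, which were GC boxes and a CCAAT box. The Insig1 window held 5, an E-box among them, and the Hmgcs1 window held 8.

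RefSeq windows were found for 24 of the 28 members, 30 windows in all. The sterol regulatory element in this spelling occurred in 1 member, Hmgcs1 (1 of the 30 windows), and in 1.24% of all 32851 windows. The E-box occurred in 5 members (Hsd17b7, Sc5d, Dhcr7, Insig1 and Scap; 6 of the 30 windows) and in 7.15% of all windows. CCAAT boxes were found in 20 members (20 of the 30 windows) and in 37.4% of all windows. GC boxes were found in 21 members (24 of the 30 windows) and in 35.7% of all windows. A match is a match of letters, and its use by a factor was not measured.

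Gene counts per library ran from 18548095 to 20264090 with thiothixene and from 10472349 (mouse b) to 22297520 (mouse c) with DMSO. Libraries of a group lay far apart. Log2 CPM (CPM, counts scaled to library size with TMM factors) correlated across genes at 0.825 between DMSO b and DMSO c, and at 0.981 between thiothixene b and thiothixene c. Thiothixene a, DMSO b and DMSO c stood apart, with limma quality weights of 0.5369, 0.2092 and 0.2281 where the other 3 libraries had 2.283 to 6.227. For the marker sums in this paragraph CPM was scaled to total gene counts alone, without TMM factors. Macrophage markers summed to 11532.8 to 13596.8 CPM with thiothixene and 11462.1 to 15935.2 CPM with DMSO, with 7 of 8 found in all 6 libraries. Neutrophil and granulocyte precursor markers (8 of 8 found in at least 1 library) summed to 259.5 to 311.3 CPM with thiothixene and to 324.5 to 572.2 CPM with DMSO, highest in mouse b. Their part in the members' values was not tested. Dendritic cell markers stayed at or below 1.14 CPM in sum and B, T and NK cell markers at or below 0.398 CPM, with Cd3d at 0 in all 6 libraries. Stromal markers summed to 54.0 to 280.2 CPM with thiothixene and 97.4 to 165.5 CPM with DMSO. The erythroid marker Hbb-bs was at 0 in all 6 libraries. In such bulk RNA, fewer cells of a type and less RNA per cell cannot be told apart.

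No member passed an adjusted p of 0.05. In edgeR's quasi-likelihood test over all genes, 0 of 28 members were called against 0.0% of all genes tested, and the adjusted p was 1 for all 28. A single member, the lanosterol synthase gene Lss, had an unadjusted p under 0.05 on the higher side, where 0.882% of all tested genes lay, and 0 members lay on the lower side. DESeq2 and limma-voom also called 0 members, with 2 and 1 at an unadjusted p under 0.05. Most members nevertheless had higher means with the drug: 23 of 28 (82.1%) were above 0 in log2 fold change, where 45.3% of all tested genes were. The median of the 28 was 0.24 against -0.04 over all genes. Fdft1, whose means were equal to the digits given, counts among the 23. The members had been chosen with earlier results of these libraries known, so these counts carry no test.

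The groups did not overlap for 5 members, all of them higher with thiothixene: Acat2, Lss, Sc5d, Dhcr7 and Insig1. They were 17.9% of the module, where 3.88% of all tested genes were higher in each thiothixene library than in each DMSO library. No member was lower in that sense, where 2.77% of all tested genes were. The other 23 members overlapped. With fewer libraries, groups overlap less often for any gene, so each count below stands beside its own share of all tested genes. Members higher numbered 13 (46.4%) without DMSO c, where 11.1% of all genes were higher, and 13 without mouse c, where 15.8% were. They numbered 8 (28.6%) without thiothixene c, where 6.02% of all genes were higher, and 8 without mouse a, where 17.0% were. A single member was lower (3.57%) without DMSO b, DMSO c, mouse b or mouse c, where 9.06%, 10.5%, 11.1% and 15.3% of all genes were lower. Set by mouse, 5 members were higher with thiothixene in all 3 mice, 16 in 2 mice and 7 in 1 mouse. Those 5 are the members without overlap, for which this order within mice necessarily follows. The share of all genes by mouse was not computed.

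**Figure D1:**
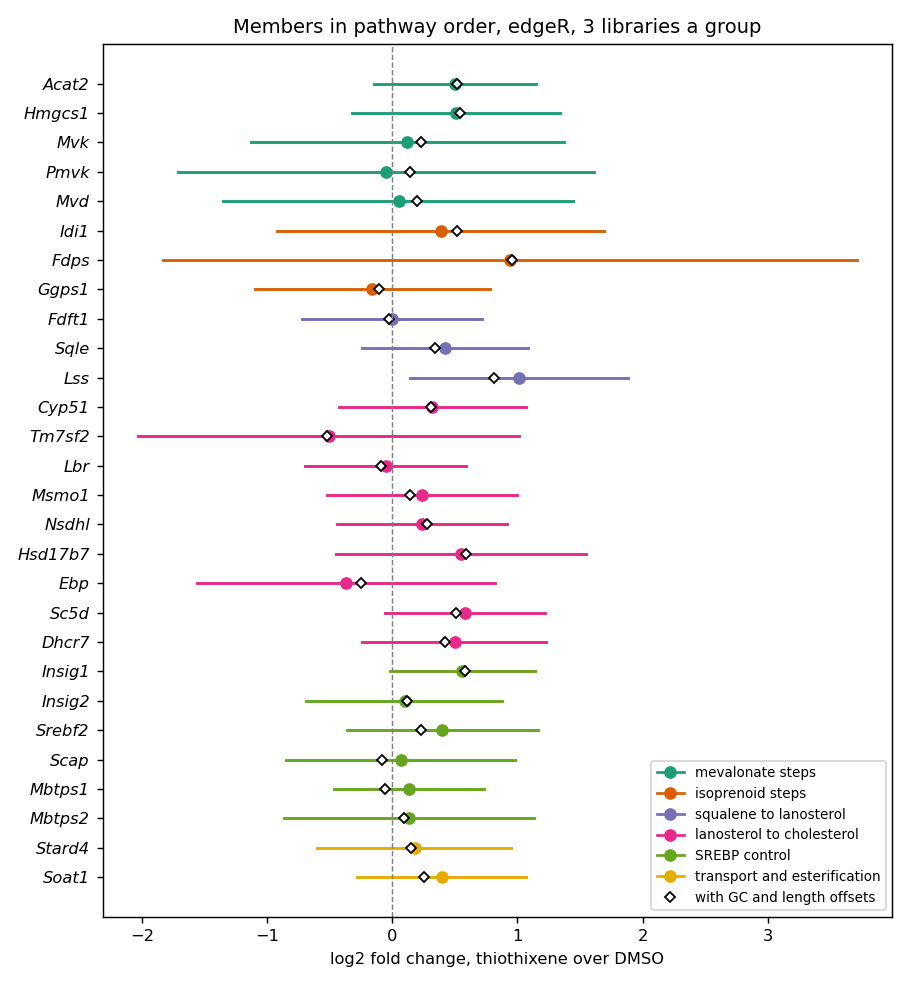
Log2 fold change of thiothixene over DMSO for the 28 members in pathway order, from edgeR with 3 libraries a group. Circles and lines are estimates and 95% intervals coloured by role, and diamonds are the estimates after correction for GC content and length. The interval of Lss, from 0.14 to 1.88, is the only interval that does not reach 0.

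Across the module summed CPM was 2745.4 in thiothixene a, 2540.2 in thiothixene b and 2344.5 in thiothixene c. With DMSO it was 2019.3, 1924.8 and 2271.5 in the same mice. The groups did not overlap, although DMSO c came close to the thiothixene library of that mouse. After the correction for GC content and length described below they did overlap, with thiothixene c at 2276.2 and DMSO b at 2280.1 CPM. The ratio of the means was 1.23 (2543.4 ± 200.5 against 2071.9 ± 179.2 CPM, SD, n = 3), and within mice it was 1.36, 1.32 and 1.03. Soat1 was the most abundant member in CPM. Without Soat1 the ratio of the means was 1.2 before the correction and 1.16 after it, with 1.04 in mouse c. The corrected sums without Soat1 did not overlap, with thiothixene c at 1702.6 and DMSO c at 1633.7 CPM. Before the correction the 20 enzymes alone did overlap, at 1130.9 to 1348.5 CPM with thiothixene and 902.0 to 1156.2 CPM with DMSO. Their ratio in mouse c was 0.978. After the correction the enzymes came close, with thiothixene c at 1123.4 and DMSO b at 1110.6 CPM, without overlap.

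At the entry to the pathway, Acat2 was higher in each thiothixene library and Hmgcs1 in 2 of 3 mice, while the kinases and the decarboxylase that follow showed no common direction. Of these 5 genes 4 were above 0, and the median log2 fold change was 0.12. Acat2, a cytosolic thiolase that joins acetyl-CoA units (ENSMUSG00000023832.15, chromosome 17, 12942890 to 12960747, minus strand of GRCm38), measured 28.9, 22.9 and 26.8 CPM with thiothixene in mice a, b and c and 17.3, 19.7 and 18.6 CPM with DMSO. The lowest thiothixene library thus stood above the highest DMSO library, and the DMSO libraries lay close together. The means were 26.2 ± 3.02 and 18.5 ± 1.19 CPM, a log2 fold change of 0.50 (SE 0.28) with an unadjusted p of 0.113 in edgeR. Of the 100-base stretches of Acat2 transcripts 28.9% also occur in Acat3, so its level is uncertain by what the counting did with shared reads.

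Hmgcs1, the cytosolic HMG-CoA synthase and the most abundant of these 5 genes in CPM (ENSMUSG00000093930.3, chromosome 13, 119690379 to 119708260, plus strand of GRCm38), measured 174, 139 and 144 CPM with thiothixene and 108, 61.0 and 151 CPM with DMSO. DMSO c was above thiothixene b and c, and DMSO b was far below all others. In edgeR its log2 fold change was 0.51 (SE 0.36, unadjusted p 0.193), and the within-mouse log2 ratios were 0.69, 1.18 and -0.07. On the opposite strand Gm48342 overlaps 12.1% of its exon bases.

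The mevalonate kinase gene Mvk ranged from 11.6 to 28.2 CPM with thiothixene and from 8.53 to 34.2 CPM with DMSO (log2 fold change 0.12, SE 0.55). Pmvk, the phosphomevalonate kinase gene, ranged from 4.84 to 14.1 and from 2.90 to 22.1 CPM (-0.05, SE 0.72). Mvd, which encodes the decarboxylase that makes isopentenyl diphosphate, ranged from 15.8 to 33.9 and from 8.15 to 49.0 CPM (0.05, SE 0.61). For all 3 the DMSO libraries held both the highest value, in mouse b, and the lowest, in mouse c. Within mice, Mvd had log2 ratios of -0.53 and -0.52 in mice a and b and of 1.94 in mouse c. Mvk and Pmvk likewise were lower with thiothixene in mice a and b and higher in mouse c.

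**Figure D2:**
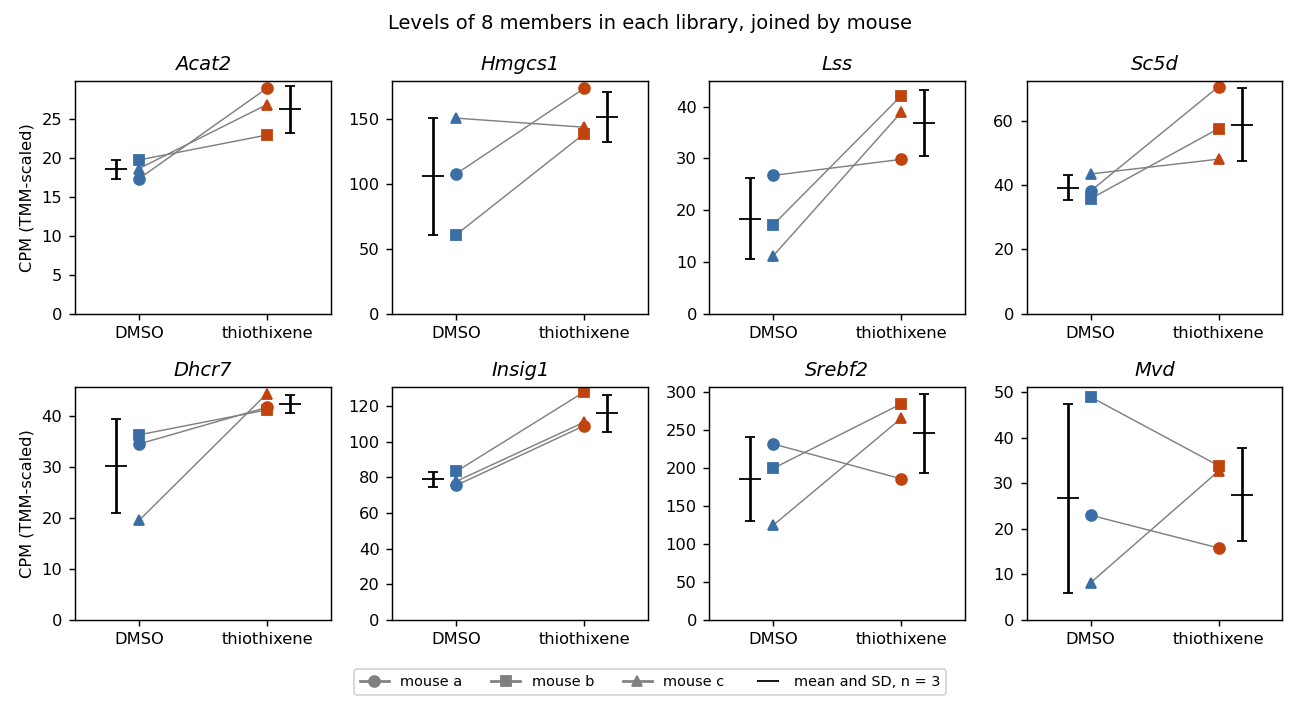
Levels of 8 members in each library (CPM after TMM scaling), with lines joining the DMSO and thiothixene libraries of a mouse, and bars for the mean and SD of 3 libraries. Acat2, Lss, Sc5d, Dhcr7 and Insig1 show no overlap between groups, whereas the line of mouse c runs against the other 2 mice for Hmgcs1 and Mvd.

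The isoprenoid steps, which make the diphosphates used for sterols and for protein prenylation, had 2 of 3 genes above 0, and the groups overlapped for all 3. Idi1, the isopentenyl diphosphate isomerase gene and the most abundant of them in CPM, measured 56.2, 37.8 and 36.3 CPM with thiothixene in mice a, b and c and 29.1, 10.1 and 60.2 CPM with DMSO. Its highest and its lowest value were both in DMSO libraries, from mice c and b. EdgeR gave a log2 fold change of 0.39 (SE 0.57, unadjusted p 0.515), and the within-mouse log2 ratios were 0.94, 1.86 and -0.72. Part of Idi1 is uncertain, since 21.9% of its 100-base stretches recur in other genes, mainly Gm13502.

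Fdps, the farnesyl diphosphate synthase gene, had few counts: 18, 44 and 49 with thiothixene and 32, 14 and 0 with DMSO. In CPM these were 0.855, 2.36 and 2.42 with thiothixene and 1.43, 1.56 and 0 with DMSO. The count of 0 in DMSO c allows a level of up to 0.128 CPM, for counting error alone. Its unadjusted p in edgeR, 0.458, was the smallest of these 3 genes. Its log2 fold change of 0.94 (SE 1.21) had the widest interval of the module, from -1.83 to 3.71. Gm43738 overlaps 26.7% of the exon bases of Fdps on its own strand, so its level is uncertain, and how reads of the pair were assigned is not given in the sources used here. Ggps1, which makes geranylgeranyl diphosphate, ranged from 19.7 to 29.9 CPM with thiothixene and from 15.0 to 40.2 CPM with DMSO (-0.16, SE 0.41).

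Between squalene and lanosterol the values of the 3 enzymes differed: Lss had the smallest p of the module, Sqle was higher in 2 of 3 mice, and Fdft1 had equal means. Lss, which closes oxidosqualene to the first sterol (ENSMUSG00000033105.13, chromosome 10, 76531588 to 76557138, plus strand of GRCm38), measured 29.8, 42.1 and 38.9 CPM with thiothixene in mice a, b and c and 26.7, 17.2 and 11.2 CPM with DMSO. The groups did not overlap, but the libraries of mouse a lay close to each other. The means were 36.9 ± 6.38 and 18.3 ± 7.81 CPM, a log2 fold change of 1.01 (SE 0.38, 95% interval 0.14 to 1.88). Its unadjusted p in edgeR was 0.0282, rank 141 of 14856, and the adjusted p was 1. Within mice the log2 ratios were 0.16, 1.27 and 1.75.

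Fdft1, squalene synthase, the enzyme that commits carbon to sterols (ENSMUSG00000021273.12, chromosome 14, 63145150 to 63179578, minus strand of GRCm38), measured 233, 194 and 166 CPM with thiothixene and 147, 262 and 182 CPM with DMSO. Mouse a was higher with the drug and mice b and c were lower. EdgeR put it at 0.00 on the log2 scale (SE 0.31, 95% interval -0.72 to 0.72, unadjusted p 0.996). On the opposite strand the cathepsin gene Ctsb overlaps 18.3% of the exon bases of Fdft1, and Ctsb measured between 9294.7 and 17109.7 CPM. Like Fdft1, Ctsb was highest in DMSO b. Reads of the pair cannot be told apart if the counting ignored strand, so the level of Fdft1 is uncertain.

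Sqle, squalene epoxidase, ranged from 127 to 140 CPM with thiothixene and from 83.7 to 132 CPM with DMSO (log2 fold change 0.42, SE 0.29). It was higher with the drug in mice a and b, and in mouse c its log2 ratio was -0.05. DMSO c alone overlapped the thiothixene libraries.

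From lanosterol to cholesterol 6 of 9 genes were above 0 and the median log2 fold change was 0.24, and 2 of the 9, Sc5d and Dhcr7, did not overlap between groups. Sc5d, the sterol desaturase that acts on lathosterol (ENSMUSG00000032018.15, chromosome 9, 42251595 to 42264256, minus strand of GRCm38), measured 70.5, 57.5 and 48.0 CPM with thiothixene in mice a, b and c. Its DMSO values were 38.1, 35.7 and 43.4 CPM. The DMSO libraries varied little, and thiothixene c was only slightly above the DMSO library of that mouse. This gave a log2 fold change of 0.58 (SE 0.28), with an unadjusted p of 0.0684 in edgeR. Dhcr7, the reductase that acts on dehydrocholesterol (ENSMUSG00000058454.16, chromosome 7, 143823145 to 143848410, plus strand of GRCm38), ranged from 41.2 to 44.4 CPM with thiothixene and from 19.5 to 36.3 CPM with DMSO. Its log2 fold change was 0.50 (SE 0.32), and DMSO c was the low library.

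Msmo1, the methylsterol monooxygenase gene and the most abundant of these 9 in CPM, measured 215, 152 and 136 CPM with thiothixene in mice a, b and c and 105, 130 and 190 CPM with DMSO. Mouse a had the highest thiothixene value and the lowest DMSO value. Its log2 fold change in edgeR was 0.24 (SE 0.33, unadjusted p 0.484), and the within-mouse log2 ratios were 1.03, 0.22 and -0.48. Nsdhl and Hsd17b7, which with Msmo1 strip methyl groups from the sterol ring, were at 0.24 (SE 0.30) and 0.55 (SE 0.44) on the log2 scale. Nsdhl ranged from 24.7 to 31.8 CPM with thiothixene and 20.1 to 29.2 CPM with DMSO. Hsd17b7 ranged from 26.8 to 36.4 and from 11.2 to 35.3 CPM. Both were higher with the drug in mice a and b and lower in mouse c.

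Cyp51, the demethylase that opens this stretch, ranged from 93.8 to 120 CPM with thiothixene and 64.6 to 119 CPM with DMSO (0.32, SE 0.33), again with DMSO c as the sole overlap. The remaining 3 genes were below 0. Ebp, the sterol isomerase, ranged from 24.9 to 45.5 and from 20.7 to 87.0 CPM (-0.37, SE 0.52). Tm7sf2, a sterol reductase, ranged from 5.98 to 14.4 and from 4.18 to 29.0 CPM (-0.51, SE 0.66). Lbr, a reductase of the same step that also anchors heterochromatin at the nuclear lamina, ranged from 60.3 to 77.6 and from 55.5 to 80.3 CPM (-0.05, SE 0.28). Ebp and Tm7sf2 had their highest value in DMSO b and their lowest in DMSO c. Vps51 overlaps 12.1% of the exon bases of Tm7sf2 on its own strand, and Dnah14 overlaps 9.24% of those of Lbr on the other strand. Overlaps on the other strand were smaller for Ggps1 (5.44%), Cyp51 (3.76%) and Lss (3.53%).

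All 6 genes of SREBP control were above 0 with a median log2 fold change of 0.13, but with offsets for GC content and length 4 of 6 were, and with library quality weights or without the 3 libraries that stood apart 2 of 6, with medians of -0.05 and -0.14. Insig1 alone did not overlap between groups. Insig1, which retains SCAP and is itself a target of SREBP2 (ENSMUSG00000045294.12, chromosome 5, 28071363 to 28078662, plus strand of GRCm38), measured 109, 128 and 111 CPM with thiothixene in mice a, b and c. With DMSO it measured 75.5, 83.3 and 77.8 CPM. Its within-mouse log2 ratios of 0.52, 0.62 and 0.51 lay closest together of the 28 members, a description made after the values were seen. The means were 116 ± 10.4 and 78.9 ± 4.03 CPM, a 1.47-fold difference (log2 fold change 0.56, SE 0.25, 95% interval -0.02 to 1.14) with an unadjusted p of 0.0577 and an adjusted p of 1 in edgeR. In fits without any single library or mouse the log2 fold change lay between 0.49 and 0.61.

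Insig2, the paralog that SREBP2 does not strongly induce, ranged from 25.5 to 37.5 CPM with thiothixene and 18.7 to 35.2 CPM with DMSO (0.10, SE 0.34). Per kilobase of exon, Insig1 stood above Insig2 in 6 of 6 libraries, by 2.48 to 5.63 times. Whether the fold changes of the paralogs differ was not tested.

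Srebf2, the gene of SREBP2 and the most abundant of these 6 in CPM, measured 186, 285 and 266 CPM with thiothixene in mice a, b and c and 232, 200 and 125 CPM with DMSO. Mice b and c were higher with the drug and mouse a was lower. Its log2 fold change was 0.40 (SE 0.33), and edgeR gave an unadjusted p of 0.257. Scap, its escort, ranged from 33.6 to 57.6 and from 24.1 to 59.6 CPM (0.07, SE 0.40). The Golgi proteases that cut SREBP2 were close to 0: Mbtps1 ranged from 83.3 to 92.8 and from 71.2 to 94.1 CPM (0.13, SE 0.26), and Mbtps2 from 47.8 to 84.3 and from 27.1 to 81.1 CPM (0.13, SE 0.43). Yy2 overlaps 28.4% of the exon bases of Mbtps2 on its own strand. An antisense gene covers 13.2% of those of Scap.

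Soat1, which esterifies cholesterol for storage (ENSMUSG00000026600.13, chromosome 1, 156424525 to 156474331, minus strand of GRCm38), measured 771, 639 and 563 CPM with thiothixene in mice a, b and c and 495, 381 and 624 CPM with DMSO. DMSO c overlapped the thiothixene libraries, and DMSO a and b lay below them. The log2 fold change was 0.40 (SE 0.30) with an unadjusted p of 0.218 in edgeR. Stard4, a carrier that moves sterol between membranes, ranged from 60.8 to 83.1 CPM with thiothixene and 38.3 to 76.6 CPM with DMSO (0.18, SE 0.34).

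Levels of different genes were compared per kilobase of exon (RPKM). Soat1 was the highest member with 67.2 ± 10.7 RPKM in thiothixene and 51.1 ± 12.4 RPKM in DMSO libraries. Fdft1 followed with 46.7 ± 7.92 and 46.7 ± 14.0 RPKM, and in the DMSO libraries it did not differ from Soat1 beyond their spread. Insig1 (37.5 ± 3.37 and 25.5 ± 1.30), Srebf2 (34.2 ± 7.29 and 25.9 ± 7.65) and Hmgcs1 (33.1 ± 4.19 and 23.2 ± 9.77 RPKM) came next with thiothixene and did not differ from each other beyond their spread. Fdps was lowest with 0.446 ± 0.211 and 0.237 ± 0.206 RPKM, below Tm7sf2 (2.62 ± 1.09 and 3.75 ± 2.82) and Lss (3.42 ± 0.591 and 1.70 ± 0.724 RPKM). Among genes with related roles, Lbr stood above Tm7sf2 per kilobase in 6 of 6 libraries by 1.77 to 17.8 times, and Mbtps1 above Mbtps2 in 5 of 6. Srebf2 exceeded its escort Scap in 6 of 6 libraries, by 3.99 to 5.74 times.

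**Figure D3:**
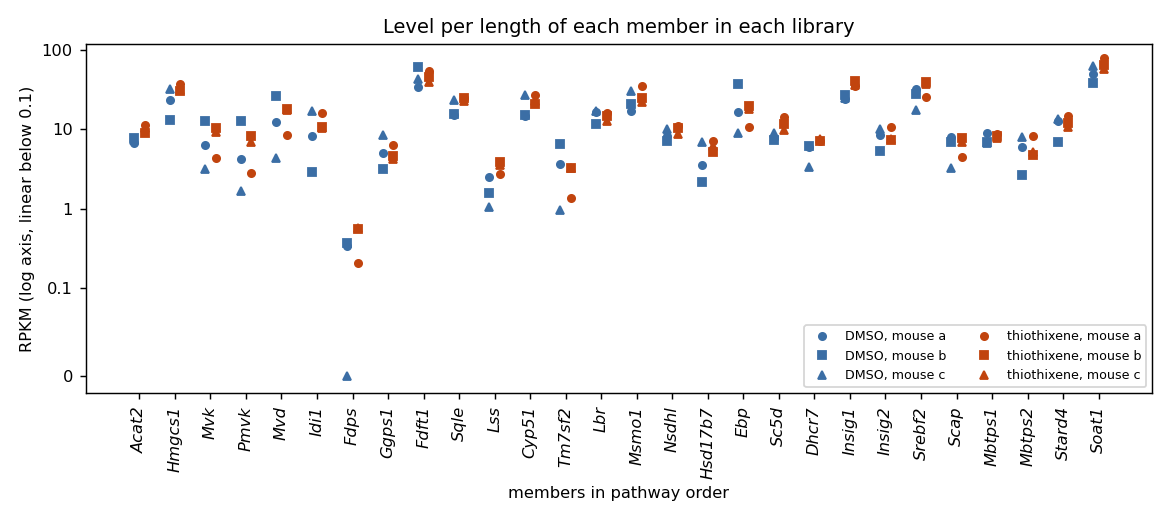
RPKM (CPM per kilobase of exon) of each member in each of the 6 libraries, on a log axis that is linear below 0.1. Most members lie between 1 and 100 RPKM, and DMSO c is at 0 for Fdps.

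The members' deviations followed the GC content of their transcripts in most libraries. Spearman's rho over the 28 members, between GC content and the log2 deviation from each member's mean, was -0.83 in thiothixene a and -0.82 in DMSO c. It was 0.58 in thiothixene b, 0.54 in thiothixene c, 0.22 in DMSO a and 0.87 in DMSO b. Over all genes the signs were the same, from -0.62 to 0.45. The 28 points of a panel share a library, its depth and its base composition, and these correlations are given as a description.

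By GC content the 9 lowest members (40.0% to 44.2%, Mbtps2, Ggps1, Idi1, Sc5d, Hmgcs1, Stard4, Hsd17b7, Soat1 and Lbr) had median log2 deviations of 0.50, 0.12 and -0.01 in thiothixene a, b and c and of -0.19, -0.74 and 0.29 in DMSO a, b and c. The 9 highest (50.9% to 59.1%, Ebp, Tm7sf2, Fdft1, Dhcr7, Mvk, Pmvk, Srebf2, Mvd and Scap) had -0.56, 0.38 and 0.34 with thiothixene and -0.02, 0.87 and -0.89 with DMSO. DMSO b and DMSO c thus deviated in opposite directions in both sets. Insig1 and Lss lie between the sets, at 48.2% and 48.7%. The part of GC content in the fold changes above was not tested beyond the correction that follows.

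**Figure D4:**
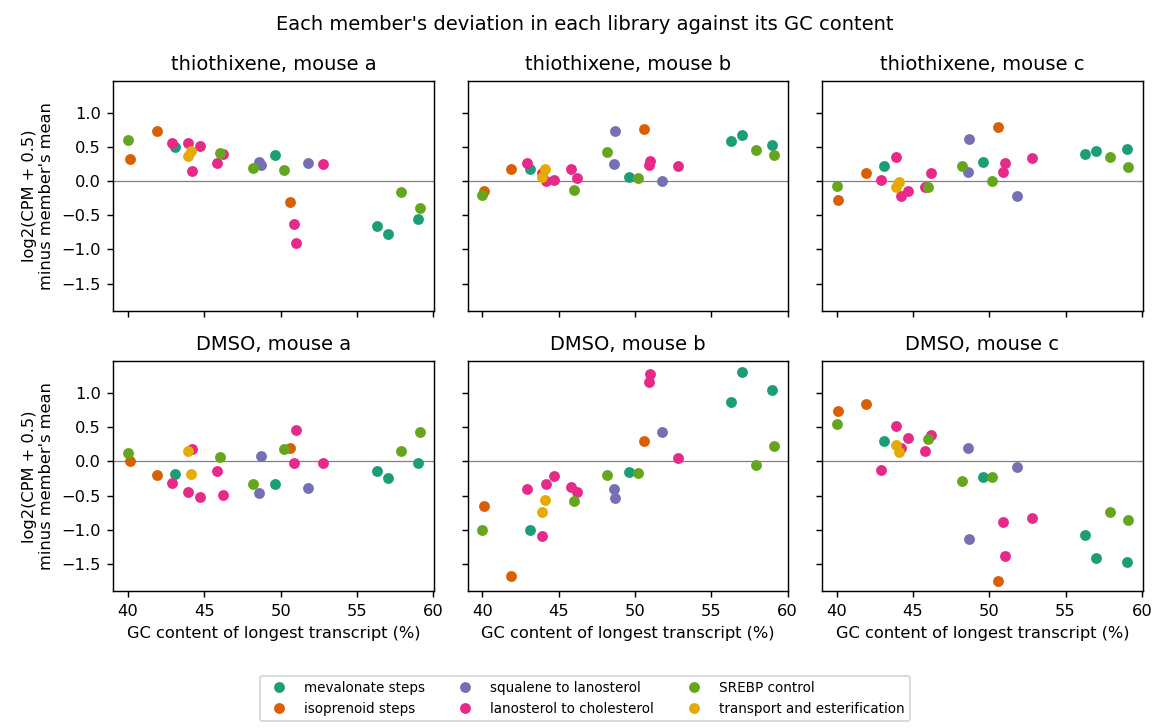
Log2 (CPM + 0.5) of each member minus its mean over the 6 libraries, against the GC content of its longest transcript, a panel per library and a point per member coloured by role. Points fall with GC content in thiothixene a and DMSO c, and rise in DMSO b.

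With offsets that remove the trend with GC content and length from each library, a setting chosen with these trends in view, standard errors of 27 of 28 members shrank, from a median of 0.34 to 0.215. No member was called (edgeR adjusted p from 0.973 to 0.998). At an unadjusted p under 0.05 stood 4 members, all higher: Acat2, Hmgcs1, Sc5d and Insig1, where 1.58% of all genes stood. Lss had an unadjusted p of 0.0646 in this edgeR fit, with a log2 fold change of 0.81 (SE 0.38). Groups did not overlap for 7 members (25.0%), all higher, where 5.01% of all genes were higher in that sense, as Hmgcs1 and Hsd17b7 joined the 5 named above. Above 0 were 21 members, with a median of 0.23, where 40.8% of all genes were above 0.

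After this correction Hmgcs1 measured 148, 147 and 153 CPM with thiothixene in mice a, b and c and 108, 80.2 and 119 CPM with DMSO. DMSO c was no longer among the thiothixene values, and the log2 fold change was 0.54 (SE 0.19), with an unadjusted p of 0.0228 in edgeR. Insig1 measured 109, 128 and 113 CPM against 76.7, 77.9 and 80.0 CPM (0.58, SE 0.16), and its unadjusted p was 0.00738 in edgeR. Fdft1 stayed near 0 at -0.03 (SE 0.27).

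Without thiothixene a, DMSO b and DMSO c, edgeR called 8 members, all higher: Hmgcs1, Mvk, Sqle, Lss, Cyp51, Msmo1, Hsd17b7 and Insig1. They were read against 4.02% of the genes tested in that fit called higher. That comparison sets 2 thiothixene libraries, from mice b and c, against 1 DMSO library, from mouse a, which was assumed to vary like the thiothixene libraries. Treatment and mouse cannot be told apart in it. In it 20 members were above 0 and 8 below. As 2 libraries against 1, these are also the 20 higher (71.4%) and 8 lower (28.6%) without overlap, where 38.7% and 37.9% of all genes were. Those below were Ggps1, Tm7sf2, Lbr, Insig2, Scap, Mbtps1, Mbtps2 and Stard4.

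Genes that border the pathway were read from 7 lists with 67 names, of which 65 matched and 62 were tested. In edgeR 0 of the 62 passed the adjusted threshold and 0 had an unadjusted p under 0.05 in either direction. Above 0 were 39 (62.9%, against 45.3% of all tested genes). Without overlap between groups 4 were higher and 1 was lower (6.45% and 1.61%, against 3.88% and 2.77% of all tested genes), shares near the background. Among branches from mevalonate (8 of 13 above 0), the prenyltransferase subunit gene Fnta was the lower gene, at 42.1 ± 3.33 CPM with thiothixene and 55.2 ± 9.52 CPM with DMSO (-0.39, SE 0.27), and Nus1, a subunit of the dolichol-making prenyltransferase, was at 0.22 (SE 0.31). Among other SREBP-driven lipid genes (7 of 10 above 0) Elovl6, a fatty acid elongase, measured 19.6 ± 2.05 against 12.1 ± 3.76 CPM without overlap (0.69, SE 0.35), and Acly, which makes cytosolic acetyl-CoA, was at 0.43 (SE 0.30).

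Among genes of sterol uptake and movement (8 of 13 above 0), Gramd1b, a carrier that brings plasma membrane sterol to the endoplasmic reticulum, measured 132 ± 5.95 against 93.3 ± 32.0 CPM without overlap (0.50, SE 0.33). The lipoprotein receptor gene Lrp1 was at 0.32 (SE 0.37), and at 0.03 (SE 0.29) with the offsets for GC content and length. Por, the reductase that feeds electrons to Cyp51 and Sqle, was at 0.17 (SE 0.32), in a list with 5 of 6 above 0. Vcp, the segregase that extracts proteins for degradation, was at -0.22 (SE 0.25, 5 of 10 above 0), and Sec24c, a coat protein of the vesicles that carry SCAP, at 0.26 (SE 0.28, 6 of 8 above 0). Both tested genes of oxysterol formation were below 0, with Cyp27a1 at -0.57 (SE 0.45). The other genes higher without overlap were Fads2 and Pdss2, named after their values were seen.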

How the data were processed

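Gene counts, whole numbers that were not normalized, were deposited as a table per library. FastQC 0.11.8, Trim Galore 0.6.10, STAR 2.7.11b and DESeq2 1.44 with mm10 are named without roles, per the submitters' processing notes. How reads were counted, with what regard to strand and on which annotation, is not given in the sources used here. Of all entries 43.07% to 44.35% per library were reads in no gene; these and other entries that name no gene stayed out of totals and tests. Without version numbers, 52073 identifiers matched GENCODE M21 (GRCm38) and 4618 did not (0.4% of gene counts). Symbols, positions, GC content, lengths and shared 100-base stretches came from that annotation, and promoter windows from RefSeq.

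The test was edgeR 4.0.16 in R 4.3.3, the robust quasi-likelihood test on TMM-scaled counts after edgeR's own filter on low counts. Treatment was the model's only term, and p-values of all 14856 genes were adjusted by Benjamini-Hochberg at 0.05. The biological coefficient of variation was 46%. The standard error is the absolute log2 fold change over the square root of F, and intervals are at 95%. The limit from a count of 0 uses 3 counts. The procedure was tested on simulated data with larger log2 fold changes than any member had. Its power at changes of the members' size was not tested. Members and lists were chosen with earlier results of these data known. All 28 members are named. Library values are given for the most abundant member and the member of smallest p in each role, and the member of smallest p and the most abundant member of each neighbour list are named.

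Letters in the titles tie each pair of libraries to a mouse, so the letters pair them. Deviations from group means correlated at -0.131, 0.318 and -0.301 for mice a, b and c, and highest, at 0.486, between thiothixene of mouse a and DMSO of mouse c. Alternatives were the mouse as a block, RLE size factors, 2 other filters, DESeq2 1.42.0, limma 3.58.1 voom with and without library quality weights, offsets for GC content and length (a spline of 5 degrees of freedom each, 98.04% of genes with a value), the offsets with the block (added after seeing the data), and fits without libraries or mice. Fits without a mouse had the mouse as a block, and fits without a single library had treatment as the only term. Settings for the non-overlapping counts, the summed CPM and the neighbour genes were in part also added after seeing the data. Listed names that did not match (Faxdc2 and Spring1) are not analysed here.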

Additional observations from a re-analysis of the deposited data

How the results depend on the processing

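Over all genes edgeR called 0, also with the mouse as a replicate block, RLE size factors, the stricter filter, limma-voom, and the offsets for GC content and length with and without the block. It called 1 without a low-count filter, DESeq2 called 8, limma-voom with library quality weights 25, and edgeR 1105 without the 3 libraries that stood apart. When a library or a mouse was left out, calls ran from 0 to 45, with 45 without mouse c. The fits without a mouse also had the mouse as a block, and the fits without a single library did not. The 45 calls thus differ from the main fit in model as well as in libraries. Members called were 0 in all these settings apart from the fit without those 3 libraries, whose calls are not read. That fit put 20 members higher and 8 lower without overlap, where 38.7% and 37.9% of all genes were. With a library or mouse left out there were 5 to 13 members higher and 0 to 1 lower without overlap, where 5.35% to 17.0% of all genes were higher and 4.03% to 15.3% lower. The counts above 0 (20 to 24) and the medians (0.23 to 0.46) moved less. With all libraries kept, the replicate block changed no call.

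Of 532 refitted values of members 454 kept their direction and side of the threshold, and 70 turned sign. The rest came from the fit without those 3 libraries and kept their direction. Why signs turned was not tested. Pmvk was at 0.21 with the replicate block, 0.01 without a filter and 0.46 with limma-voom. Fdft1 was at -0.01 with RLE size factors and with DESeq2, and at -0.00429 with the stricter filter. With quality weights Pmvk was at 0.85, Ebp 0.18, Insig2 -0.15, Scap -0.02, Mbtps1 -0.08, Mbtps2 -0.21 and Stard4 -0.07. With the offsets Pmvk was at 0.14, Fdft1 -0.03, Scap -0.08 and Mbtps1 -0.06, and with the offsets and the replicate block 0.20, -0.03, -0.08 and -0.04. Without the 3 libraries Pmvk was at 0.86, Ebp 0.21, Insig2 -0.18, Scap -0.13, Mbtps1 -0.15, Mbtps2 -0.25, Stard4 -0.16 and Lrp1 -0.12.

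With a library or mouse left out, ranges crossed 0 for Mvk (-0.39 to 0.76), Pmvk (-0.60 to 1.03), Mvd (-0.53 to 0.82), Idi1 (-0.04 to 1.42), Fdps (-0.07 to 3.12), Ggps1 (-0.44 to 0.43), Fdft1 (-0.28 to 0.26), Tm7sf2 (-1.22 to 0.37), Lbr (-0.23 to 0.16), Msmo1 (-0.13 to 0.64), Ebp (-0.77 to 0.35), Insig2 (-0.12 to 0.41), Scap (-0.33 to 0.62), Mbtps2 (-0.20 to 0.66), Stard4 (-0.08 to 0.52) and Por (-0.01 to 0.48). The other 13 members stayed on their side of 0 in these fits, Insig1 between 0.49 and 0.61 and Lss between 0.73 and 1.55. DMSO b had the fewest gene counts. Fdps, with 0 to 49 counts per library, had the fewest counts of the members. Its count of 0 was in DMSO c, the library with the most gene counts.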
